A study of Mus musculus with 12 samples.

Results

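The 10 genes described here encode parts of the desmosome (Dsg1a, Dsg2, Dsc2, Dsp, Jup and Pkp2) or proteins known from the corneal and surface epithelium (Krt5, Krt12, Aldh3a1 and Tgm1). They were listed by name, out of 54146 genes counted in the retinas of mice that lost Otx2 in their photoreceptors (PRs), and were found by matching Ensembl identifiers to gene symbols. The list was chosen by name with the levels of these genes in the 12 libraries, and their differences between ages, already known, so their values are given as a description and without p-values. Whole retinas, RNA of the retinal pigmented epithelium (RPE) included, were sequenced from 12 mice kept on a 129/SV background, each mouse giving 1 library, with 3 mice for each age. The cKO mice carried Otx2 flox/flox alleles and the Crx-CreERT2 transgene, whose Cre is active in PRs. They received a single intraperitoneal injection of tamoxifen at P30 and were killed 2, 4 or 8 d later, at P32 (mice 4 to 6), P34 (mice 7 to 9) or P38 (mice 10 to 12). P30 mice 1 to 3 are labelled as controls, with no further genotype in the labels. The cKO mice were older than the controls by up to 8 d, so age, tamoxifen and deletion cannot be told apart in any comparison with P30.

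Desmosomes are the junctions through which epithelial cells tie their keratin filaments to those of their neighbours. Desmogleins and desmocollins, the desmosomal cadherins, bridge the gap between the cells, and inside each cell plakoglobin and the plakophilins connect their tails to desmoplakin, which holds the keratins. Stratified epithelia such as the cornea are rich in desmosomes, whereas the neurons and Müller glia of the retina are joined mainly by adherens junctions at the outer limiting membrane. KRT5 and KRT12 are keratins of the basal layer of stratified epithelia and of the corneal epithelium, ALDH3A1 is an abundant soluble enzyme of the mouse cornea, and TGM1 cross-links proteins of the cornified envelope.

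Levels are given in CPM, which set the counts of a gene against the total of its library, after scaling by the TMM method of edgeR. The libraries held 29701483 to 60145034 counts on genes, so that 3 counts corresponded to 0.0473 to 0.102 CPM. In edgeR's quasi-likelihood test over the 18628 genes with enough counts, a gene was called lower or higher where its adjusted p did not exceed 0.05 and its log2 fold change reached 0.5 in size, and all 10 genes were tested. Counts over the whole Otx2 gene (ENSMUSG00000021848) lay between 293 and 377 CPM in all mice and did not pass the test at any age. The deletion removes 1 coding exon, so these whole-gene counts do not check it. Xist, the transcript of females, exceeded the Y-linked Ddx3y in all 3 P30 mice, in 2 of 3 P32 mice and in 1 of 3 mice at each later age, so the sexes were not balanced between the ages. Among markers of retinal cells, Gnat1, the transducin subunit of rods, lay between 10635 and 19548 CPM and Crx, a transcription factor of photoreceptors, between 1061 and 1458 CPM, and markers of tissues next to the retina differed widely between mice. Lens markers (9 genes) summed to 281 CPM in P34 mouse 7 and to 46002 CPM in P32 mouse 4. Where such markers moved with one of the 10 genes, their values are given beside it. In whole-tissue RNA, fewer cells of a type and less RNA per cell cannot be told apart.

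The 10 genes differed widely in the size of their changes. The log2 fold change was below 0 in 9 of the 10, all but Jup, both at P34 against P30 (50.2% of all genes) and at P34 against P32 (52.2% of all genes). Leaving out P30 mouse 1 turned the sign of Krt5 and Krt12 at P34 against P30, and leaving out P30 mouse 3, P34 mouse 7 or P34 mouse 8 that of Dsp, while at P34 against P32 the sign turned for Pkp2 without P32 mouse 4 and for Dsp without P32 mouse 5. At P34 against P30, 3 of the 10 were called lower (Dsg1a, Dsg2 and Tgm1) and none higher, while 0.66% of all genes tested were called lower. The 10 were chosen with this contrast known, so nothing is read from that share. In 4 of the 10 (the same 3 and Dsc2) every P34 mouse lay below every P30 mouse, against 9.67% of all genes. The median log2 fold change was -1.17 over the 10 genes and 0.00 over all genes. In the same comparison DESeq2 called 1.89% of all genes lower. At an unadjusted p of 0.05, edgeR called 1009 of the 18628 genes lower and 159 higher. Against P30, edgeR called none of the 10 at P32 or P38, and no gene at all (0% lower and 0% higher). At an unadjusted p of 0.05 it called Tgm1 alone among the 10 lower at both ages, with 1.77% of all genes (P32) and 2.66% (P38), and DESeq2 called Tgm1 alone lower as well, with 0.0913% and 0.183% of all genes. Between the knockout ages, Dsg1a and Dsg2 were called lower at P34 than at P32 (0.242% of all genes were) and higher at P38 than at P34 (0.199% of all genes were). The 5 comparisons share mice with one another, so their values are set side by side and not counted as separate evidence.

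**Figure D1:**
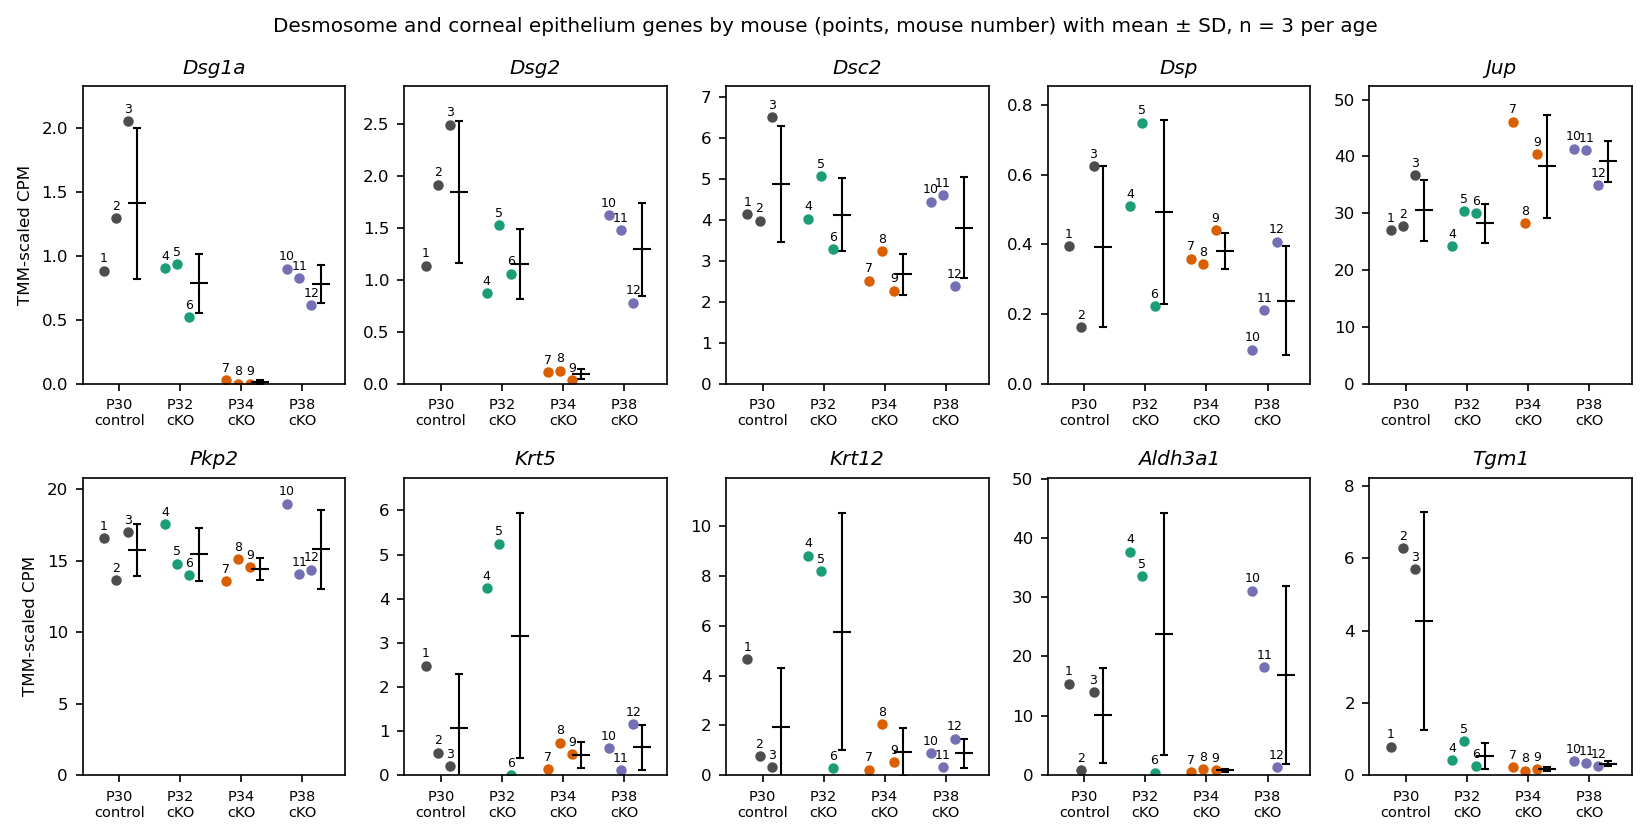
TMM-scaled CPM (linear axes from 0) of the 10 genes in each of 12 mice. Points are mice with their numbers, coloured by age, and the bar beside them is the mean ± SD of 3 mice, cut off at 0 where the SD exceeds the mean. Dsg1a and Dsg2 are near 0 in the 3 P34 mice, Aldh3a1 splits the mice into 6 at 13.996 CPM or more and 6 at 1.32 CPM or less, and Jup and Pkp2 differ little.

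The desmogleins Dsg1a (ENSMUSG00000069441) and Dsg2 (ENSMUSG00000044393) showed the same course, with a low at P34. Dsg1a encodes a mouse counterpart of human desmoglein 1, the cadherin of upper epidermal layers, and Dsg2 encodes the desmoglein found in most tissues that have desmosomes. Dsg1a was measured at 0.883, 1.29 and 2.05 CPM in P30 mice 1, 2 and 3 and at 0.900, 0.930 and 0.518 CPM in P32 mice 4, 5 and 6. In P34 mouse 7 it had 1 count (0.0276 CPM), in P34 mice 8 and 9 it had 0 counts, and in P38 mice 10, 11 and 12 it was back at 0.898, 0.821 and 0.611 CPM. The P34 mice did not overlap with the mice of any other age, whereas the P32 and P38 values lay near the lower end of the P30 values and overlapped with them. Over the 3 mice of each age the gene had 189 counts at P30, 87 at P32, 1 at P34 and 90 at P38. Scaled for library size, the P30 level was 137-fold that at P34, with a 95% interval from counting error alone of 24.4 to 5456. The fitted log2 fold change was -6.80 ± 0.69 (SE, n = 3 mice each) at P34, and -0.83 ± 0.39 at both P32 and P38, which did not pass the threshold. With only 1 count at P34 the fitted size is set in part by the fit, and it ran from -8.82 without P34 mouse 7, which holds that count, to -6.26 without P34 mouse 8. Without mouse 7 the P34 mice had 0 counts, so that the ratio above has no finite value there.

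Dsg2 was measured at 1.14, 1.92 and 2.50 CPM at P30, and at 0.870, 1.52 and 1.06 CPM at P32. It was down to 0.110, 0.122 and 0.0339 CPM in P34 mice 7, 8 and 9 (4, 5 and 1 counts), and P38 mice 10, 11 and 12 had 1.63, 1.48 and 0.781 CPM. As for Dsg1a, the 3 P34 mice were the lowest of the 12, and the mice of the other ages overlapped. Relative to P30, the log2 fold change of Dsg2 was -4.27 ± 0.50 in the P34 mice, -0.67 ± 0.38 in the P32 mice and -0.49 ± 0.38 in the P38 mice. The direct contrasts were -3.60 ± 0.50 for P34 against P32 and 3.77 ± 0.50 for P38 against P34, and those of Dsg1a were -5.97 ± 0.72 and 5.97 ± 0.72 (-7.98 and 7.98 without P34 mouse 7). Leaving out P34 mouse 7, 8 or 9 took the Dsg2 call from both contrasts, and leaving out mouse 8 took that of Dsg1a from P38 against P34. Both genes stayed called at P34 against P30 whichever of the 12 mice was left out. Within the 9 mice with more than 3 Dsg1a counts, which are all those not at P34, the ratio of Dsg2 to Dsg1a counts was 0.967 to 2.05 (median 1.48).

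Most markers of the ciliary and iris epithelium, which border the retina, moved with the desmogleins. Summed over the 8 markers, their level was 51.1 to 58.9 CPM in the P34 mice, against 196 to 218 CPM in the P30, 103 to 205 CPM in the P32 and 102 to 166 CPM in the P38 mice. Hence P34 stood apart in this sum too, and none of the 8 markers was at 0 in all mice. Optc and Slc4a5 were the most abundant of the 8. Slc4a5 was at 39.2 CPM in P32 mouse 4, below the P34 mice (39.9 to 42.7 CPM). Msx1 was lowest in the P34 mice (at most 0.083 CPM), but was also low in P30 mouse 2 (0.363 CPM), P32 mouse 6 (0.197 CPM) and P38 mouse 12 (0.204 CPM). At P34 against P30, 7 of the 8 were called lower (Best2, Cldn2, Optc, Otx1, Slc4a5, Zic1 and Zic2), against 0.66% of all genes. With 1 mouse left out at a time, Best2, Cldn2 and Optc stayed called in all 12 fits. Otx1 stayed called in 9 of them, Zic2 in 8, Zic1 in 7 and Slc4a5 in 5. Best2, a chloride channel gene of the ciliary epithelium, fell from 8.30 ± 1.47 to 0.130 ± 0.103 CPM (SD, n = 3 mice each), a log2 fold change of -5.95 ± 0.61 (SE, edgeR adjusted p = 0.000773). It was also the gene whose log2 CPM over the 12 mice was most like that of Dsg1a (Pearson's r = 0.99), followed by Colec12 and Mfap4 (r = 0.98 each), among the 18618 genes tested other than the 10, to which every such search was limited. For Dsg2 the most alike of these were Vcan and Cldn2 (r = 0.98 each) and Colec12 (r = 0.96), and Dsg1a and Dsg2 had r = 0.98 with each other. These r values describe likeness over 12 shared libraries in which the 3 P34 mice lie apart. With the mean log2 CPM of the 8 ciliary markers as a covariate, an alternative added after the data had been seen, no gene at all was called at P34 against P30, and Dsg1a and Dsg2 had log2 fold changes of -4.50 and -2.51. Since the marker sums at P34 did not overlap with those of any other age, the markers and the age cannot be told apart here.

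**Figure D2:**
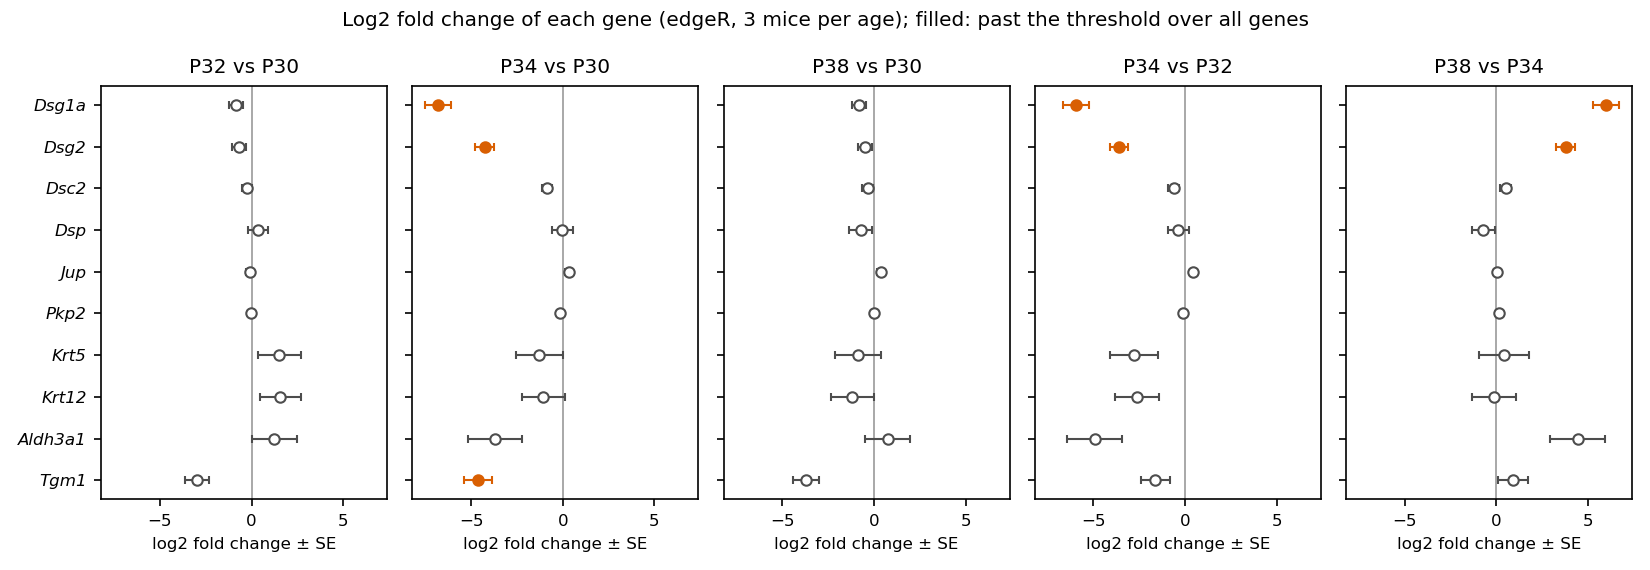
Log2 fold change ± SE from the edgeR fit (horizontal axis) for each of the 10 genes in 5 comparisons of 3 against 3 mice. Filled points passed the threshold over all 18628 genes: Dsg1a, Dsg2 and Tgm1 at P34 against P30 (-6.80, -4.27 and -4.62), and Dsg1a and Dsg2 in both contrasts between knockout ages.

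Dsc2 (ENSMUSG00000024331), the desmocollin with the widest tissue range, varied far less than its desmoglein partners. It was at 4.13, 3.98 and 6.51 CPM in P30 mice 1 to 3, at 4.02, 5.07 and 3.28 CPM in P32 mice 4 to 6, at 2.51, 3.23 and 2.27 CPM in P34 mice 7 to 9, and at 4.44, 4.60 and 2.38 CPM in P38 mice 10 to 12. All P34 mice lay below all P30 and P32 mice, but P38 mouse 12 lay within the P34 values. Its largest log2 fold change against P30, -0.86 ± 0.29 at P34, did not pass the threshold, nor did -0.24 ± 0.29 (P32) and -0.35 ± 0.29 (P38). The genes most like Dsc2 were Frmd6 (r = 0.94), Cald1 (r = 0.93) and Tacc2 (r = 0.92).

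The plaque genes Jup and Pkp2 did not take part in the P34 low, and for Dsp the counts were too few to tell. Jup (ENSMUSG00000001552), which lies at chr11:100368958-100397763 on the minus strand in GRCm38 and encodes plakoglobin, a protein shared by desmosomes and adherens junctions, was at 27.0, 27.7 and 36.7 CPM at P30 and at 24.2, 30.4 and 30.0 CPM at P32. The P34 mice had 46.1, 28.2 and 40.4 CPM, and the P38 mice 41.3, 41.1 and 34.9 CPM. The highest values came from P34 and P38 mice, yet P34 mouse 8 lay within the P30 values, and the log2 fold changes of 0.33 ± 0.18 at P34 and 0.36 ± 0.18 at P38 were not called. Its pattern was most like those of Brsk1 (r = 0.98), Ncdn (r = 0.97) and Scrt1 (r = 0.96), which are genes of neurons.

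Pkp2 (ENSMUSG00000041957), at chr16:16213318-16272712 on the plus strand, encodes plakophilin 2. It was the most even of the 10, from 13.6 CPM in P34 mouse 7 to 19.0 CPM in P38 mouse 10, a 1.40-fold span over all 12 mice. Its log2 fold changes against P30 lay between -0.13 and 0.01, each with an SE of 0.15. The SD of its log2 CPM over the mice was at the 20.1st percentile of all genes tested, while those of Dsg1a, Dsg2, Krt5, Krt12, Aldh3a1 and Tgm1 were at the 98.8th percentile or above.

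Dsp (ENSMUSG00000054889), at chr13:38151294-38198577 on the plus strand, encodes desmoplakin, the plaque protein that every desmosome needs. It had only 4 to 29 counts per mouse, or 0.0970 to 0.750 CPM. The P30 mice had 0.394, 0.162 and 0.624 CPM, the P32 mice 0.510, 0.750 and 0.222 CPM, the P34 mice 0.359, 0.343 and 0.440 CPM, and the P38 mice 0.0970, 0.211 and 0.407 CPM. The mice of all ages overlapped, and the log2 fold change at P34 was -0.02 ± 0.58, so that at this depth a change of Dsp was not detectable in either direction unless it was large. No gene followed Dsp as closely as genes followed the desmogleins, the best being Gm41517 (r = 0.85).

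Levels of different genes were compared per kilobase of exon. At P30 the order of the mean CPM per kilobase (± SD, n = 3 mice) was Aldh3a1 (5.19 ± 4.14), Jup (4.74 ± 0.83), Pkp2 (2.93 ± 0.34), Tgm1 (1.35 ± 0.95), Krt12 (1.03 ± 1.29), Dsc2 (0.923 ± 0.269), Krt5 (0.484 ± 0.561), Dsg1a (0.248 ± 0.104), Dsg2 (0.224 ± 0.083) and Dsp (0.0407 ± 0.0239). The mice separated Jup from Pkp2, Pkp2 from Tgm1 and Dsg2 from Dsp, and every other pair of neighbours in this order overlapped. At P30, desmoplakin was therefore the least abundant of the 10 transcripts per length, and the plaque genes Jup and Pkp2 lay above both desmogleins in every P30 mouse. In the P34 mice, the means of Dsg1a (0.0016) and Dsg2 (0.0108) lay below that of Dsp (0.0394).

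**Figure D3:**
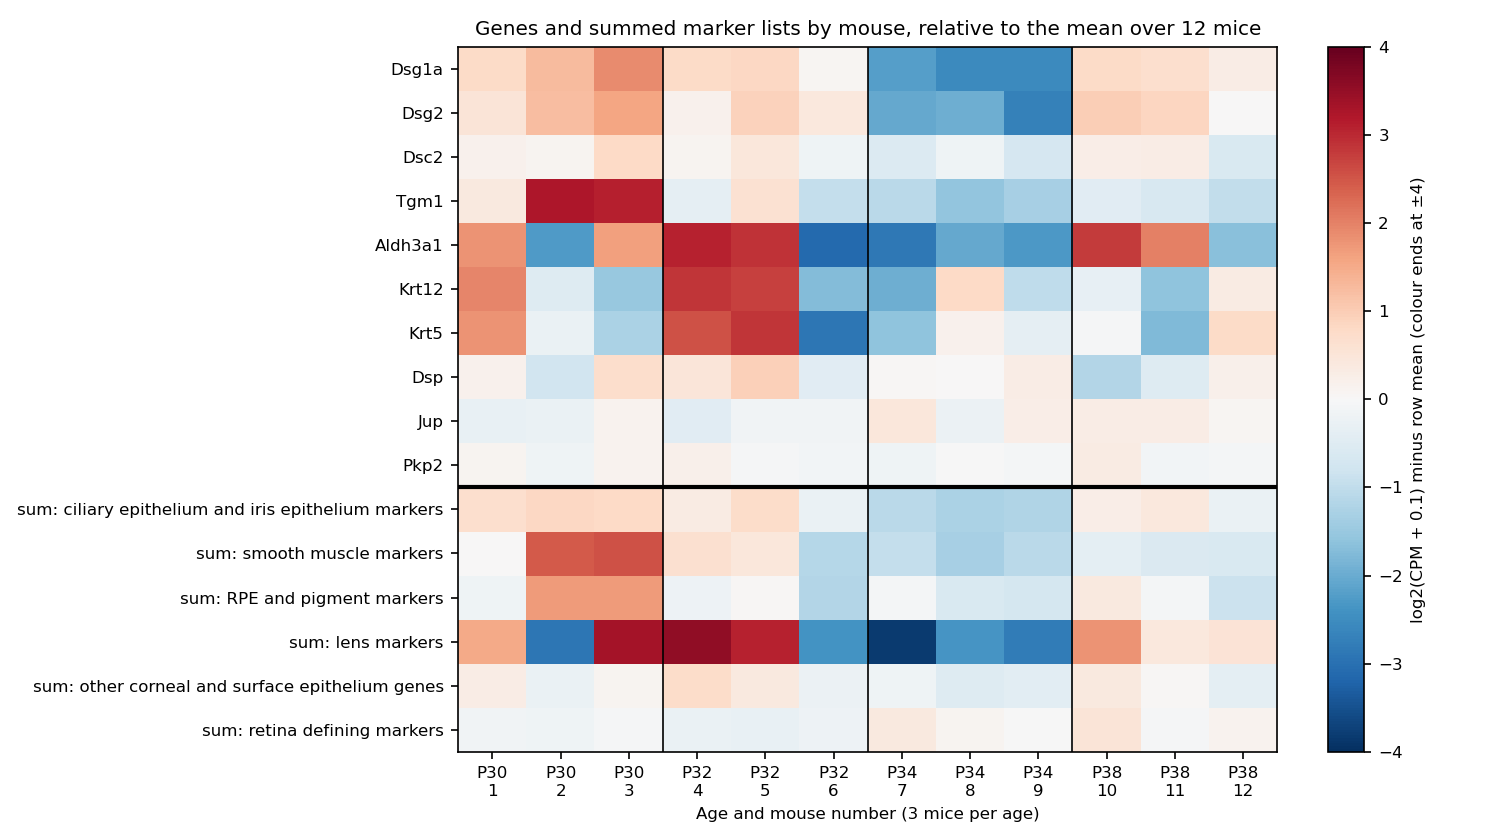
Rows are the 10 genes and, below the line, summed levels of marker lists, columns are the 12 mice by age, and colour is log2(CPM + 0.1) minus the mean of the row (blue low, red high, colours end at 4). The low of Dsg1a and Dsg2 in P34 mice 7 to 9 has its like in the ciliary marker sum, the high of Tgm1 in P30 mice 2 and 3 in the smooth muscle and pigment sums, and Krt5 and Krt12 are highest in mice 1, 4 and 5.

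Tgm1 (ENSMUSG00000022218) is at chr14:55700009-55713926 on the minus strand and encodes transglutaminase 1. It was high in P30 mice 2 and 3 alone, at 6.28 and 5.71 CPM (311 and 192 counts), against 0.789 CPM in P30 mouse 1. The P32 mice had 0.420, 0.930 and 0.246 CPM, the P34 mice 0.221, 0.122 and 0.169 CPM (8, 5 and 5 counts), and the P38 mice 0.388, 0.328 and 0.238 CPM. All P34 and P38 mice lay below all P30 mice, and P32 mouse 5 lay above P30 mouse 1. Relative to P30 the log2 fold change was -4.62 ± 0.77 in the P34 mice, which passed the threshold, and -2.98 ± 0.67 (P32) and -3.71 ± 0.71 (P38), which did not. The P34 call was lost when P30 mouse 2, P30 mouse 3 or any of the P34 mice was left out, and when sex was added to the fit, with log2 fold changes of -5.11 to -4.21 over the 12 fits with 1 mouse left out. The P30 mean thus rested on mice 2 and 3.

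Markers of smooth muscle and genes of melanin synthesis and pigment granules were high in the same 2 mice. The summed smooth muscle markers (8 genes, 6 tested) were at 200 and 216 CPM in P30 mice 2 and 3, at 36.8 CPM in P30 mouse 1, and at 14.5 to 57.4 CPM in the 9 cKO mice. The summed RPE and pigment markers (11 genes) were at 900 and 910 CPM in P30 mice 2 and 3, at 250 CPM in P30 mouse 1, and at 124 to 367 CPM in the cKO mice. Its 5 melanin genes (Dct, Pmel, Tyrp1, Tyr and Mlana) carried this sum, each of them higher in P30 mice 2 and 3 than in any other mouse. The other members did not all share that pattern, since P30 mouse 2 was the lowest of all 12 mice for Rpe65 (5.59 CPM), Lrat (4.99 CPM), Rgr (30.0 CPM) and Ttr (28.4 CPM). No marker of either list was at 0 in all mice. At P34 against P30, 4 of the 6 smooth muscle markers tested (Acta2, Myh11, Myl9 and Tagln) and 2 of the 11 pigment markers (Mlana and Tyrp1) were called lower, against 0.66% of all genes. DESeq2 called 5 of each list lower (1.89% of all genes). Each of these edgeR calls held in only 5 of the 12 fits with 1 mouse left out. With a smooth muscle marker score in the fit, also added after the data had been seen, the log2 fold change of Tgm1 at P34 was -1.14 and only Dsg1a of the 10 genes was still called. Dsg2 was at -3.45 under this score, and Tgm1 was at -0.46 under the ciliary score. Each score thus made the changes of both Tgm1 and the desmogleins smaller, and neither assigns a gene to a tissue. The genes most like Tgm1 were Ucp2, Matn3 and Trim63 (r = 0.97 each). Of the other genes of the cornified envelope, 0 of 9 tested were called at P34 against P30 by edgeR or DESeq2, with 0.66% and 1.89% of all genes called lower. At an unadjusted p of 0.05, 2 were lower, Ppl and Cdsn, and 1009 of the 18628 genes tested were. In both Ppl and Cdsn all P34 mice lay below all P30 mice. Ppl, the gene of periplakin, was at 14.2, 3.33 and 19.9 CPM in P30 mice 1, 2 and 3 and at 1.77 to 2.44 CPM at P34, with a log2 fold change of -2.50 ± 0.72 (edgeR adjusted p = 0.234), and DESeq2 called it lower at P34 than at P32. It was thus low in P30 mouse 2, where Tgm1 was highest. In the same list 7 of 18 (Flg, Flg2, Ivl, Lce1a1, Sprr1b, Sprr2a1 and Sprr3) were at 0 in all mice.

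Krt5 (ENSMUSG00000061527) and Krt12 (ENSMUSG00000020912) were high together in P30 mouse 1 and P32 mice 4 and 5. Because they moved together, the stretches just upstream of their RefSeq starts in GRCm38.p6 are shown beside that of Tgm1, which did not follow them. The windows of 250 bases are chr11:99422260-99422509 for Krt12, chr15:101712906-101713155 for Krt5 and chr14:55713493-55713742 for Tgm1, all read 5′ to 3′ on the minus strand. Capitals mark matches to CACCC on either strand, so GGGTG where the match is on the other strand, a core bound by Krüppel-like factors. RefSeq entries were matched for 5 of the 10 genes (Krt12, Krt5, Tgm1, Jup and Dsp).
Krt12: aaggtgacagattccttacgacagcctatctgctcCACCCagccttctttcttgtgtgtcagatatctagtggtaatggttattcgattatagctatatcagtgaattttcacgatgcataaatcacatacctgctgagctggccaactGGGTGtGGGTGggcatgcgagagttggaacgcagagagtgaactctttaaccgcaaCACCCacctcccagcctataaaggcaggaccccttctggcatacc
Krt5: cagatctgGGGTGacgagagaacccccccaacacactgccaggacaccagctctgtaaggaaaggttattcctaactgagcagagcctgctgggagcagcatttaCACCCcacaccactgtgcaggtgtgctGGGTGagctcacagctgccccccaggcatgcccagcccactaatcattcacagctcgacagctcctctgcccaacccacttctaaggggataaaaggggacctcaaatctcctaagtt
Tgm1: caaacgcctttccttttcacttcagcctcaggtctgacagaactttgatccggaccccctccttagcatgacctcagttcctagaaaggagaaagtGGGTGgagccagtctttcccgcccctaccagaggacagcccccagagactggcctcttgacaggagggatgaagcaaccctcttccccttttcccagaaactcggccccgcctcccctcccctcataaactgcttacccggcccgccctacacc
The window of Krt12 held 4 such matches, that of Krt5 held 3 and that of Tgm1 held 1. A further RefSeq start of Tgm1, with the window chr14:55713089-55713338, also had 1, while Jup had 2 and Dsp 0, and 52% of the 32851 promoter windows of the same length hold at least 1. Both Tgm1 windows lie within the span of Tgm1 given above, whereas those of Krt12 and Krt5 lie outside the spans of their genes. The windows are therefore not fully alike. Matches to the E box CANNTG numbered 1 in Krt12, 2 in Krt5 and 0 in both windows of Tgm1, in Jup and in Dsp, with 66.2% of all windows holding 1 or more. The letters TAATCC, a core of bicoid-class homeodomain factors such as OTX2 and CRX, occurred in 6.25% of all windows, and TGANTCA, the AP-1 motif, in 6.75%. Neither occurred in any of the windows of the 5 genes, which says only that these letters are not in these bases.

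Krt12 was at 4.65, 0.767 and 0.327 CPM in P30 mice 1, 2 and 3, and at 8.82, 8.19 and 0.271 CPM in P32 mice 4, 5 and 6. P34 mice 7, 8 and 9 had 0.221, 2.03 and 0.508 CPM, and P38 mice 10, 11 and 12 had 0.873, 0.305 and 1.46 CPM. Mice 1, 4 and 5 stood above the other 9, of which P34 mouse 8 was the highest, and within both P30 and P32 the mice differed by more than 10-fold. Accordingly none of its log2 fold changes against P30 was called, with 1.55 ± 1.12 for P32, -1.06 ± 1.16 for P34 and -1.18 ± 1.17 for P38. Without P30 mouse 1 these values were 3.35, 0.74 and 0.62, so the sign at P34 and at P38 was set by 1 mouse. An antisense gene, A830036E02Rik, overlaps Krt12 and had 457 counts in all beside 1164 on Krt12.

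Krt5 was at 2.48, 0.505 and 0.208 CPM in the P30 mice, 4.23, 5.25 and 0 CPM in the P32 mice, 0.138, 0.735 and 0.474 CPM in the P34 mice, and 0.607, 0.117 and 1.15 CPM in the P38 mice. Again mice 1, 4 and 5 were the highest, and P32 mouse 6 had no count in a library where 3 counts would be 0.0739 CPM. Relative to P30 its log2 fold changes were 1.52 ± 1.19 (P32), -1.27 ± 1.29 (P34) and -0.85 ± 1.26 (P38), none of them called. Without P30 mouse 1 they were 3.09, 0.30 and 0.72, so here too that mouse set the sign at P34 and at P38. The ratio of Krt12 to Krt5 counts was 1.07 to 2.77 (median 1.57) in the 11 mice with Krt5 counts, although Krt12 itself spanned 39.9-fold. The 2 keratins had r = 0.94 with each other, and outside the 10 genes the 3 most like both were Calml3, Krt6b and Lypd2 (r = 0.92 to 0.96), all of them genes of surface epithelia.

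Aldh3a1 (ENSMUSG00000019102), at chr11:61207537-61218421 on the plus strand, split the mice of 3 ages into a high and a low set. It was at 15.4, 0.828 and 13.996 CPM in P30 mice 1, 2 and 3, and at 37.7, 33.5 and 0.419 CPM in P32 mice 4, 5 and 6. The P34 mice had 0.525, 0.980 and 0.812 CPM, and P38 mice 10, 11 and 12 had 31.1, 18.2 and 1.32 CPM. Hence 6 mice (1, 3, 4, 5, 10 and 11) were at 13.996 to 37.7 CPM and 6 at 0.419 to 1.32 CPM, and only at P34 were all 3 mice low. Among the 6 low mice, P32 mouse 6 was below the P34 mice, P30 mouse 2 was between them and P38 mouse 12 was above them. The log2 fold change was -3.69 ± 1.47 at P34 against P30, -4.94 ± 1.52 at P34 against P32 and 4.45 ± 1.50 at P38 against P34, and edgeR called none of them. DESeq2 called Aldh3a1 lower at P34 than at P32, together with Dsg1a and Dsg2 of the 10 genes and with 4.47% of all genes.

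Aldh3a1 and Krt12 are both known from the corneal epithelium, yet they parted in several mice. P30 mouse 3 and P38 mice 10 and 11 were high in Aldh3a1 but had 0.327, 0.873 and 0.305 CPM of Krt12, whereas P34 mouse 8, with 2.03 CPM of Krt12, was low in Aldh3a1. The ratio of Aldh3a1 to Krt12 counts accordingly ran from 0.482 in P34 mouse 8 to 59.7 in P38 mouse 11 (median 2.84). The genes most like Aldh3a1 were Krt4, a keratin of mucosal epithelia, R3hdml and Htra3 (r = 0.99 each). Lens markers summed to 5331 to 46002 CPM in the 6 mice high in Aldh3a1 and to 281 to 773 CPM in 5 of the 6 low mice, while P38 mouse 12 had 5852 CPM of lens markers with 1.32 CPM of Aldh3a1. The part of the lens markers in the Aldh3a1 values was not tested.

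**Figure D4:**
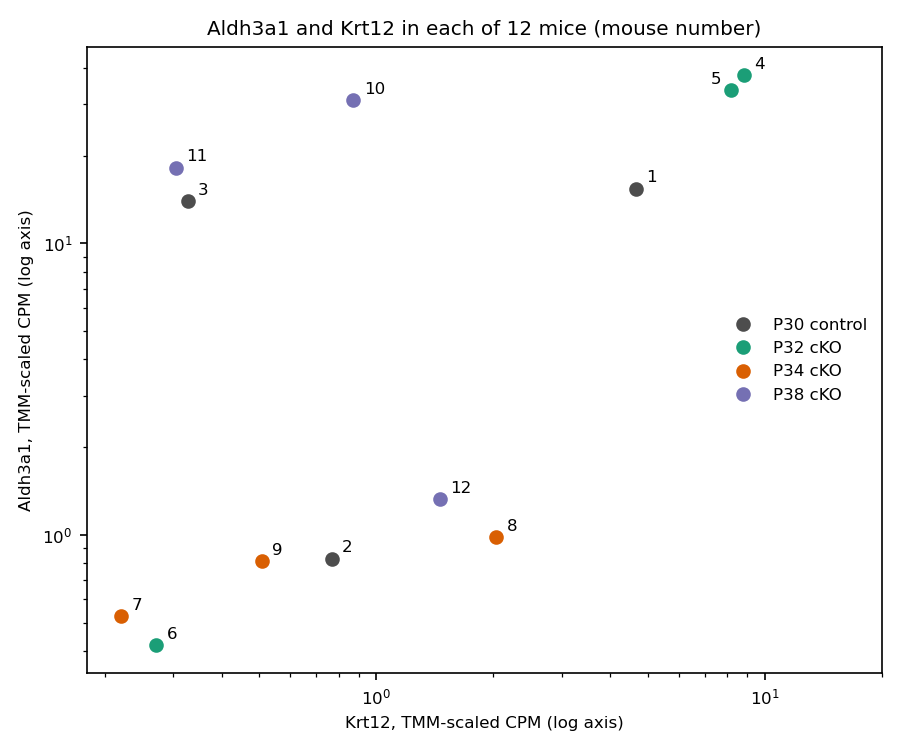
Aldh3a1 against Krt12 in each of 12 mice, both as TMM-scaled CPM on log axes, with mouse numbers and colour by age. Mice 1, 4 and 5 are high in both genes, mice 3, 10 and 11 are high in Aldh3a1 alone, and mouse 8 has more Krt12 (2.03 CPM) than Aldh3a1 (0.980 CPM).

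Of 10 further desmosome genes, 4 had enough counts. At P34 against P30, DESeq2 called 2 of these lower (1.89% of all genes were), Dsg1b and Perp, which were also the 2 at an unadjusted p of 0.05 and the 2 with all P34 mice below all P30 mice. By edgeR 0 of the 4 were called, from which nothing is read with so few genes and 0.66% of all genes called lower. Dsg1b, the neighbouring copy of Dsg1a, had 0 counts in the P34 mice, beside 43, 20 and 29 in the P30, P32 and P38 mice, so it was at least 10.4-fold lower at P34 than at P30 when 3 counts over the group are taken as its floor (edgeR adjusted p = 0.0563). Reads with more than 1 position were not counted by the authors, so Dsg1a and Dsg1b are both uncertain in level. Perp, a membrane protein of desmosomes, was at 3.96 to 8.83 CPM at P30 and 0.779 to 1.64 CPM at P34, with a log2 fold change of -2.21 ± 0.57 (edgeR adjusted p = 0.169). Pkp1 and Pkp4, further plakophilins, were not called in any comparison.

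Among tight junction genes, 3 of 15 tested were called lower at P34 against P30 (0.66% of all genes were), all of them claudins (Cldn1, Cldn2 and Cldn19). DESeq2 called 5 lower (1.89% of all genes were). Cldn19 went from 10.0 ± 2.5 CPM at P30 to 1.26 ± 0.15 CPM at P34 (SD, n = 3 mice each), a log2 fold change of -2.99 ± 0.28 (edgeR adjusted p = 0.000522). Cldn2 belongs to the ciliary markers as well. The median log2 fold change of the 15 was -0.68, against 0.00 over all genes. Of 16 adherens junction genes, which include Ctnnb1, Ctnna1 and Cdh2, none was called by edgeR (1 by DESeq2, 3 at an unadjusted p of 0.05), with a median of -0.04. With 0.66% of all genes called lower, nothing is read from that. The DESeq2 call was Nectin3 (-0.67 ± 0.17 by edgeR). Cdh1 (-2.87 ± 1.11) was at 13.2, 1.25 and 13.4 CPM in P30 mice 1, 2 and 3 and 1.10 to 1.52 CPM at P34, the split seen for Aldh3a1. DESeq2 called Cdh1 lower at P34 than at P32, with 4.47% of all genes. 

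Among the epithelial genes, 0 of 13 further keratins tested (0 by DESeq2, 2 at an unadjusted p of 0.05) and 0 of 22 further corneal and surface epithelium genes (1 by DESeq2, 4 at an unadjusted p) were called at P34 against P30, with medians of -0.09 and -0.45. Over all genes, edgeR called 0.66% lower and DESeq2 1.89%, so nothing is read from an absence of calls in these or the following lists. At an unadjusted p, 1009 of the 18628 genes tested were lower. Krt18, the most abundant of these keratins and one of simple epithelia, was at 69.6 to 136 CPM with no order by age. Krt19 was at 2.07, 0.141 and 1.93 CPM in P30 mice 1, 2 and 3 and at 0.147 to 0.169 CPM in the P34 mice, which is the split of the mice seen for Aldh3a1. Markers of the corneal stroma and endothelium were not called either (0 of 7, 1 by DESeq2, 4 at an unadjusted p), and summed to 29.7 to 73.7 CPM. Kera, a gene of the stroma, had 0 to 4 counts per mouse. Lum, of the same list, was at 3.82 and 3.24 CPM in P30 mice 2 and 3 and at 0.049 to 1.56 CPM in the others. Col5a1 was at 4.25 to 16.6 CPM, Col8a1 at 11.9 to 30.8 CPM and Col8a2 at 3.77 to 21.7 CPM. Of the conjunctiva and skin markers 0 of 6 were called (0 by DESeq2, 1 at an unadjusted p). The same held for 0 of 9 lens markers (8 by DESeq2, 9 at an unadjusted p), 0 of 8 endothelial, 0 of 6 skeletal muscle and 0 of 12 retinal markers (for these 3 lists 0 by DESeq2, and 0, 0 and 1 at an unadjusted p).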

How the data were processed

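RNA was extracted from whole retinas of 12 mice, and 50 bp single reads were sequenced from stranded mRNA libraries. Per the labels and the study's methods, reads were mapped to mm10 (STAR 2.5.3a), and HTSeq 0.6.1p1, in its union mode, assigned them to genes of Ensembl 93. The authors deposited whole-number counts per gene and mouse, without normalization. Reads without a unique position (23.7 to 32.2% of reads) and reads on no gene (6.53 to 13.7%) were listed apart and left out here. The strand option of the counting is not given in the sources used here, and Tsix, opposite Xist, had 2 to 10 counts per mouse where Xist had up to 114682. GENCODE M21 named 54079 (99.9%) of 54146 genes. In R 4.3.3, genes were kept by filterByExpr of edgeR 4.0.16 and scaled by TMM, and the 4 ages were fitted together by the quasi-likelihood method. Adjusted p-values are Benjamini-Hochberg values over 18628 genes. Each SE was obtained by dividing the absolute log2 fold change by the root of the F statistic. On counts simulated for P34 against P30 (18402 genes), the procedure called 82 of 99 genes lowered by 2 on the log2 scale, 33 of 96 lowered by 1, and 10 of 18207 unchanged ones.

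The 10 genes, the marker lists and the alternatives were chosen with earlier results of these data known. Besides the 10 genes, the text names list genes called in any comparison or among the 5 most abundant of their list, and the 3 genes outside the 10 most like each of them by Pearson's r of log2 CPM (prior count 2). Lypd2 and Krt6b are named only as such, and Kera, Ppl, Cdsn, Msx1, Cdh1, Nectin3, the melanin and RPE genes and the cornified envelope genes at 0 were named after their values were seen. The alternatives were DESeq2 1.42.0 and its size factors, other filters, a robust fit, fits of 2 groups, other thresholds, sex, and leaving out each mouse. Counting intervals and floors cover counting error only. No pair of mice of the same age held the same counts within sampling noise (chi-square per degree of freedom of 19.7 to 254).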

Additional observations from a re-analysis of the deposited data

Results flagged for a closer look

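With 3 mice per age, no single mouse was tested against its group. Genes of the related lists for which the change against P30 itself differed between ages, by the direct edgeR contrast of those ages, are given with their log2 fold changes. At P34 against P32, Best2 (-5.43), Optc (-4.64), Cldn2 (-3.04) and Cldn19 (-2.19) were lower. At P38 against P34, Best2 (4.73), Optc (4.11), Cldn2 (3.17), Cldn19 (1.91) and Cldn1 (1.51) were higher. Their edgeR adjusted p lay between 0.000818 and 0.0383. In each of these cases all 3 mice of one age lay on the same side of all 3 mice of the other. Each call was repeated in 12 fits with 1 mouse left out. At P34 against P32, Best2 and Optc stayed called in 12 fits, Cldn2 in 11 and Cldn19 in 10. At P38 against P34, Optc stayed called in 12 fits, Cldn2 in 11, Best2 in 10, Cldn19 in 8 and Cldn1 in only 4. Best2, Optc and Cldn2 are among the 8 ciliary and iris epithelium markers, whose sums at P34 did not overlap with those of any other age, and both contrasts rest on the same P34 mice.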

How the results depend on the processing

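Counts at P34 rest on few reads and 3 mice, and the depth limits Dsg1a, Dsg2, Dsp, Krt5 and Tgm1 most. No paired analysis was possible because the mice are numbered 1 to 12 and no number is shared between ages. Of 368 counts of calls recomputed, 275 stayed within 1.5 times the reported count or at the same value, and of the log2 fold changes of the 10 genes 978 moved by less than the spread between mice, 55 moved by more and 0 called ones changed sign. DESeq2's size factors, the robust fit and no limit on the fold change moved no count by more than 1.5 times. The median of all genes moved by less than 0.1 on the log2 scale in every setting. Where no cause is named, the cause was not tested.

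For the 10 genes at P34 against P30 (3 called), the stricter filter, which removes Dsg1a and Tgm1, left 1, an unadjusted p gave 5, the ciliary score 0 and the smooth muscle score 1. At P34 against P32 (2 called) the stricter filter gave 1, a fit of only those mice 0, an unadjusted p 4 and the ciliary score 0. At P38 against P34 (2 called) the stricter filter gave 1 and the ciliary score 0. At P32 and at P38 against P30 (0 called) no filter, DESeq2 and an unadjusted p each gave 1, Tgm1.

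For all genes at P32 against P30 (0 called), no filter gave 23, DESeq2 25 and an unadjusted p 540. At P34 against P30 (123 called) no filter gave 298, DESeq2 369, only those mice 229, an unadjusted p 1168, the ciliary score 0 and the smooth muscle score 9. At P38 against P30 (0 called) the counts were 18 with no filter, 45 with DESeq2 and 645 at an unadjusted p. At P34 against P32 (45 called, all lower) they were 656 (425 lower, 231 higher) with no filter, 1406 (832 lower, 574 higher) with DESeq2, 11 with only those mice, 2687 at an unadjusted p, 92 with sex and 0 with the ciliary score. At P38 against P34 (37 called) they were 115, 144, 71, 709 and 0 for no filter, DESeq2, only those mice, an unadjusted p and the ciliary score.

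For the lists at P34 against P30, other desmosome genes (0 called) gave 2 with no filter, 2 with DESeq2, 1 with only those mice, 2 at an unadjusted p and 1 with sex. Adherens junction genes (0) gave 1 with no filter, 1 with DESeq2, 1 with only those mice and 3 at an unadjusted p. Tight junction genes (3) gave 5 with DESeq2, 8 at an unadjusted p and 0 with either score. Keratins (0) gave 2 at an unadjusted p, cornified envelope genes (0) 1 with no filter and 2 at an unadjusted p, and surface epithelium genes (0) 1 with no filter, DESeq2 or only those mice and 4 at an unadjusted p.

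Leaving out 1 mouse at a time, the calls among the 10 genes ranged from 0 to 1 at P32 and at P38 against P30 (Tgm1, called without P30 mouse 1), from 2 to 3 at P34 against P30, from 1 to 4 at P34 against P32 (4 without P32 mouse 6) and from 0 to 2 at P38 against P34 (0 without P34 mouse 8). All genes ranged from 0 to 19 at P32 and from 0 to 13 at P38 against P30, from 43 (without P34 mouse 8) to 213 (without P32 mouse 6) at P34 against P30, from 14 to 2726 at P34 against P32 (without the same mice), and from 8 to 58 at P38 against P34. Other desmosome genes ranged from 0 to 1 and tight junction genes from 2 to 4, and the other 4 lists stayed at 0.

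Under the ciliary score the log2 fold changes at P34 against P30 of Cldn1 (0.084), Otx1 (0.22), Zic1 (0.15), Zic2 (0.33), Acta2 (1.18), Tyrp1 (1.04) and Mlana (1.24) changed sign, as did Cldn1 at P38 against P34 (-0.033), and under the smooth muscle score that of Myh11 (0.15). The ciliary score holds Otx1, Zic1 and Zic2 and the smooth muscle score Myh11, so the values of these 4 genes under their own score are set in part by construction.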
